A study of Mus musculus with 10 samples.

Results

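The nuclear genes of respiratory complex I were followed across 4 groups of mouse leukaemic progenitor libraries. A gene counted as a member when the deposited count table held it, GENCODE release M21 classed it as protein_coding and its symbol began with Nduf. The rule found 46 of the 52636 genes of the table. They comprise 36 structural subunits of the complex, 8 Ndufaf assembly factors, Ndufa4 and its paralogue Ndufa4l2. In the analysis 45 of the 46 had enough counts to be tested. Ndufa4l2 was not tested and lay between 0.0903 and 1.35 CPM (the gene's count over the TMM-scaled library total, on the usual CPM scale) over the 10 libraries.

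Complex I (NADH:ubiquinone oxidoreductase) is the entry point of the mitochondrial electron transport chain. Its N module oxidises NADH, a chain of iron-sulfur clusters leads the electrons to the Q module, where ubiquinone is reduced, and its proximal and distal membrane arms pump protons. Most subunits are encoded in the nucleus and imported, and 7 (the mt-Nd genes) are encoded in mitochondrial DNA. Assembly factors bring the modules together and are absent from the finished enzyme. Ndufa4 was first named as a complex I subunit and is now placed in complex IV, the cytochrome c oxidase.

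The libraries come from DIN, a leukaemia model in which fetal liver cells were co-transduced with MSCV vectors for DNMT3A R882H (TRI-DNMT3A R882H, marked by dsRed), IDH2 R140Q (marked by GFP) and NRAS G12D (with TTA) and put into sublethally irradiated female Ptprca mice. Cryopreserved cells of moribund mice were re-transplanted into Ptprca recipients, which got doxycycline or normal chow and water. Doxycycline turns the DNMT3A R882H vector off. The cells sequenced had been sorted as cKit+/Cd11b- from bone marrow and spleen.
The groups are day 14 off (doxycycline for 14 days, 4 libraries), day 14 on (no doxycycline, 14 days, 2 libraries), day 5 off (doxycycline for 5 days, 2 libraries) and day 5 on (no doxycycline, 5 days, 2 libraries). All 4 groups carry the IDH2 R140Q and NRAS G12D vectors, and no library received doxycycline without the vector it controls. The labels do not say which library is marrow or spleen, or whether each is a separate mouse, so every p-value measures only the spread between these libraries. Age is not given in the sources used here.

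Library totals ran from 9292644 to 14340624 counts. With a floor of 3 counts, a gene without reads may still have a level of 0.209 CPM at the greatest depth and of 0.323 CPM at the least, by counting error only. The mouse gene Dnmt3a lay at 31.9 to 39.2 CPM in day 14 off libraries, 55.9 and 73.6 CPM in day 14 on libraries, 65.6 and 50.2 CPM in day 5 off libraries and 52.8 and 51.2 CPM in day 5 on libraries. Tags at the 3′ end of a vector's RNA may lie outside the mouse gene, so the labels cannot be checked by these values.
Markers of the sort and of other cells differed between the groups. Kit stood at 30.9 to 36.4 CPM in day 14 off libraries, against 88.9 and 98.1 CPM in day 14 on libraries, and Itgam (Cd11b) at 2.07 to 3.73 CPM against 21.9 and 8.76 CPM. Cd34, a progenitor marker, stood at 0.282 to 5.86 CPM in day 14 off libraries, against 67.4 and 82.6 CPM in day 14 on libraries. Erythroid and proliferation genes moved at day 14 as well, with values given below beside the complex I result.

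At the starts of these genes, sequences were searched for the binding motifs of factors known to drive nuclear respiratory genes. Whether these factors have a part in the day 14 change was not tested. RefSeq promoters on GRCm38.p6 (the mm10 assembly), 250 bases before to 50 bases after each start, were matched for 40 of the 46 members. Of these, 8 held the core AAGATGGC of the YY1 motif, and all 8 matches lay on the sense strand, between 11 and 46 bases after the start. The stretches of 30 bases below run 5′ to 3′ on the gene's strand, with the core in capitals. The first 6 belong to members higher in day 14 off than in day 14 on libraries, and the last 2 (Ndufa3 and Ndufs4) to members that did not pass the test there.
Ndufa9 (chr6:126849097-126849126, minus strand): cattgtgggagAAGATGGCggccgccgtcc
Ndufaf8 (chr11:120098933-120098962, plus strand): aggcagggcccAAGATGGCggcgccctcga
Ndufb8 (chr19:44555393-44555422, minus strand): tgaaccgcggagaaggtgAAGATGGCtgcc
Ndufc1 (chr3:51408915-51408944, minus strand): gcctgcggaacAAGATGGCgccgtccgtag
Ndufs6 (chr13:73328433-73328462, minus strand): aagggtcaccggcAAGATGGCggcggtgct
Ndufs7 (chr10:80249462-80249491, plus strand): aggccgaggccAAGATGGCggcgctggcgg
Ndufa3 (chr7:3617384-3617413, plus strand): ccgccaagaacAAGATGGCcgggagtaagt
Ndufs4 (chr13:114388045-114388074, minus strand): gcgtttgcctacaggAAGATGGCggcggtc

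The palindromic NRF1 core was held by 3 of the 40 promoters, and its letters stand in capitals below. Ndufa11 and Ndufaf4 were higher in day 14 off libraries, and Ndufaf5 did not pass the test.
Ndufa11 (chr17:56717692-56717721, plus strand): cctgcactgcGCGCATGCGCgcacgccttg
Ndufaf4 (chr4:24897960-24897989, plus strand): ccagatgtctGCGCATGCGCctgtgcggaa
Ndufaf5 (chr2:140170652-140170681, plus strand): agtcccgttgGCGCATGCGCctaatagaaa

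Both strands were searched in each case, and no match of 1 motif overlapped a match of another. The YY1 core was in 20% of the members' promoters, against 2.75% of all 32851 RefSeq promoters and 4.42% of the 12877 promoters of tested genes. For the NRF1 core the shares were 7.5%, 0.971% and 2.01%. The ETS core CCGGAAG, bound by GABP, was in 15% of the members' promoters, against 8.86% of all promoters and 17.3% of those of tested genes. The E-box CACGTG was in 5.0%, against 7.15% and 9.84%, and the ERR motif TCAAGGTCA was in 0 of 40, against 0.423% and 0.287%. The median GC content was 59.3% in the members' promoters and 52.7% over all promoters. The YY1 core contains ATG, the letters of a start codon, and its matches in members all lay after the gene's start. Whether they mark the start of translation, and the part of either feature in these shares, was not tested. The YY1 core was held by 6 of the 25 promoters of members called higher at day 14 and by 2 of the 15 others. A match describes letters in a window and is not a binding site.

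The day 14 comparison sets libraries with DNMT3A R882H turned off by doxycycline for 14 days against untreated libraries. Loss of the vector and doxycycline itself cannot be told apart in it. Most complex I genes were higher with the vector off. At day 14, 28 of the 45 tested members rose in off over on libraries and 0 fell, at an adjusted p of 0.05 in edgeR's quasi-likelihood test, where 16.9% of all 15916 tested genes rose, 14.9% fell and 31.8% changed either way. The log2 fold change was above 0 for 43 of 45 members, with a median of 0.53 (range -0.22 to 1.09), against a median of 0.01 over all tested genes. An unadjusted p below 0.05 was reached by 32 members, all of them higher off. Such p-values were common over the table. The largest p of these members (0.0467 by edgeR) ranked 6639 from the smallest among all 15916 tested genes. All 4 day 14 off libraries lay above both day 14 on libraries for 36 members, where 27.9% of all tested genes did so. Only Ndufa12 and Ndufab1 changed by at least 2-fold among the called members.
The count rests on the 2 day 14 on libraries. Without day 14 on replicate 1 it was 12, with 8.36% of all genes called higher, and without day 14 on replicate 2 it was 13, with 9.96% called higher. In bulk libraries, fewer cells of a type and less RNA per cell cannot be told apart.

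**Figure D1:**
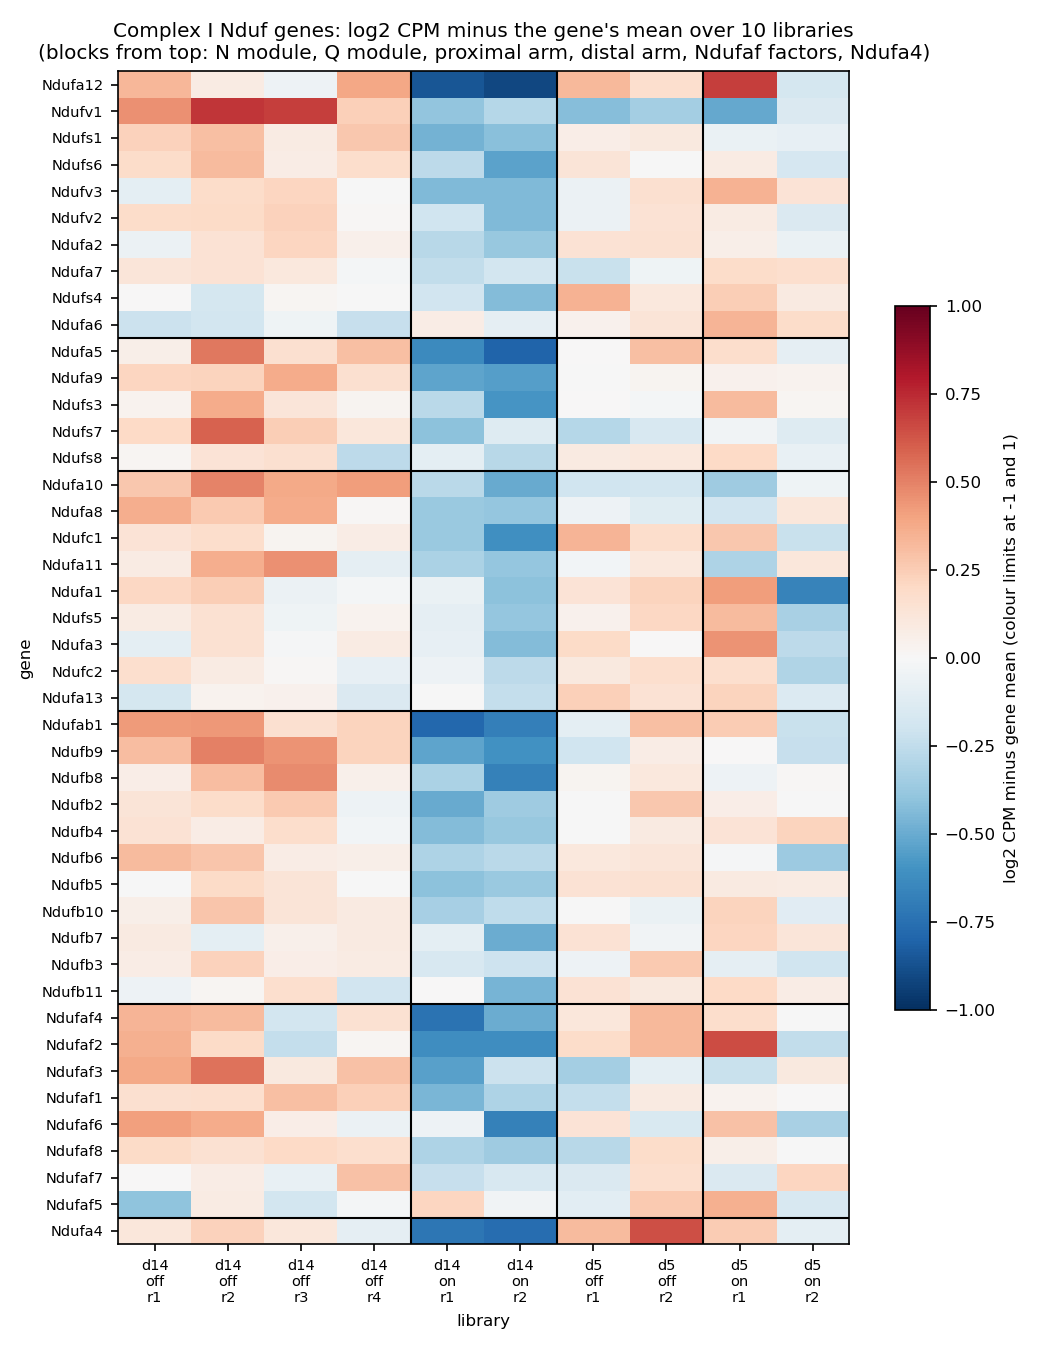
Each row is 1 of 44 tested members and each column a library (d14 off to d5 on, r for replicate), and the colour gives the log2 CPM minus the gene's mean over the 10 libraries (colour limits at -1 and 1). The 2 day 14 on columns are blue in nearly all rows, with 3 and 1 of all 45 tested members above their own mean, while the day 14 off columns have 28 to 42 above it.

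The map of deviations shows where the difference lies. Members sat at a median of 0.13, 0.19, 0.12 and 0.05 log2 units from their own means in the day 14 off libraries and at -0.31 and -0.39 in the day 14 on libraries. In the day 5 off libraries the medians were 0.01 and 0.11, and in the day 5 on libraries 0.17 and -0.08. The day 14 off libraries were thus near the day 5 libraries, and the day 14 on libraries were below both. Over all tested genes the same medians lay between -0.02 and 0.04. For 27 of 45 members both day 14 on libraries were below all 8 others, which held for 9.91% of all tested genes, and for 0 members were both above all 8 others (7.24% of all genes). This count was chosen after the values were seen.

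Subunits of the N module, which binds and oxidises NADH, were called higher for 7 of 10, with a median log2 fold change of 0.50. Ndufv1 (ENSMUSG00000037916, chromosome 19, 4007384 to 4012806, mm10), the subunit that holds the flavin and binds NADH, had 37.9, 45.2, 44.5 and 32.6 CPM in the day 14 off libraries, against 20.9 and 22.6 CPM in the day 14 on libraries. It had 20.5 and 21.7 CPM in the day 5 off libraries and 19.2 and 24.9 CPM in the day 5 on libraries. All 4 day 14 off libraries were above the 6 others, and the log2 fold change at day 14 was 0.88 ± 0.18 (SE, edgeR adjusted p = 0.00399). Without day 14 on replicate 1 it was 0.80 and did not pass the test (adjusted p = 0.0509).
Ndufs1 (ENSMUSG00000025968, chromosome 1, 63143596 to 63176833), the large iron-sulfur subunit, had 48.8, 51.3, 44.0 and 50.2 CPM in day 14 off libraries, against 30 and 31.2 CPM in day 14 on libraries. Day 5 off libraries had 43.6 and 44.6 CPM and day 5 on libraries 39.8 and 39.3 CPM, so the day 14 on pair was the lowest. The change at day 14 was 0.67 ± 0.12 (SE, edgeR adjusted p = 0.0025). Eef1b2 overlaps Ndufs1 on the opposite strand, and the strand setting of the counting is not given in the sources used here.
Ndufa12 (ENSMUSG00000020022, chromosome 10, 94198720 to 94221443), an accessory subunit at the base of the module, had 57.0, 48.0, 43.8 and 59.1 CPM in day 14 off libraries, against 25 and 23.9 CPM in day 14 on libraries. It had 56.7 and 50.7 CPM in day 5 off libraries and 73.3 and 40.1 CPM in day 5 on libraries, a wide spread in that last pair. The change at day 14 was 1.09 ± 0.23 (SE, edgeR adjusted p = 0.00508). Ndufa6, a LYR-motif subunit where the N and Q modules meet, went against the rest of the module. It had 181, 185, 204 and 179 CPM in day 14 off libraries, against 221 and 197 CPM in day 14 on libraries, and the groups overlapped (-0.16 ± 0.12, edgeR adjusted p = 0.332).

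In the Q module 4 of 6 subunits were called higher, with a median of 0.57. Ndufa9 (ENSMUSG00000000399, chromosome 6, 126821721 to 126849136), an accessory subunit close to the quinone channel, had 55.8, 56.2, 62.4 and 53.8 CPM in day 14 off libraries, against 33.4 and 32.8 CPM in day 14 on libraries. Its day 5 levels lay between them, at 48.0 and 49.2 CPM in off libraries and 49.7 and 49.5 CPM in on libraries. The change at day 14 was 0.79 ± 0.12 (SE, edgeR adjusted p = 0.000866).
Ndufa5 (ENSMUSG00000023089, chromosome 6, 24518666 to 24528013), an accessory subunit of the hydrophilic arm, had 110, 152, 118 and 130 CPM in day 14 off libraries, against 67.8 and 60.4 CPM in day 14 on libraries. With 106 and 130 CPM in day 5 off libraries and 119 and 98.9 CPM in day 5 on libraries, the 8 libraries outside the day 14 on group overlapped one another. The change at day 14 was 0.99 ± 0.17 (SE, edgeR adjusted p = 0.00142).

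Of the proximal membrane arm 4 of 9 subunits were called higher, with a median of 0.33. Ndufa10 (ENSMUSG00000026260, chromosome 1, 92439010 to 92473860), an accessory subunit on the matrix face of that arm, had 98.6, 115, 107 and 110 CPM in day 14 off libraries, against 67.7 and 57.6 CPM in day 14 on libraries. It had 71.1 and 71.8 CPM in day 5 off libraries and 64.0 and 79.4 CPM in day 5 on libraries, so here the day 14 off group alone stood above the rest. The change at day 14 was 0.78 ± 0.14 (SE, edgeR adjusted p = 0.00178). Ndufa13, also known as GRIM-19, had 119, 137, 138 and 121 CPM in day 14 off libraries, against 133 and 113 CPM in day 14 on libraries. The groups overlapped (0.06 ± 0.14, edgeR adjusted p = 0.78), and without day 14 on replicate 2 the value was -0.05.

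The distal membrane arm had 8 of 11 subunits called higher, with a median of 0.48. Ndufab1 (ENSMUSG00000030869, chromosome 7, 122085403 to 122101886), the mitochondrial acyl carrier protein, which also serves lipoate and iron-sulfur cluster synthesis, had 288, 289, 240 and 251 CPM in day 14 off libraries, against 124 and 133 CPM in day 14 on libraries. Day 5 off libraries had 200 and 264 CPM and day 5 on libraries 255 and 184 CPM. The 2 day 14 on libraries were the lowest of the 10, and the change at day 14 was 1.05 ± 0.17 (SE, edgeR adjusted p = 0.00128). Reads of its pseudogene Ndufab1-ps, at 0.471 to 2.27 CPM over the libraries, could be split with it in counting.
Ndufb9 (ENSMUSG00000022354, chromosome 15, 58933756 to 58939488), a LYR-motif subunit that docks the acyl carrier protein to the arm, had the smallest p of all members at day 14. It had 154, 176, 169 and 144 CPM in day 14 off libraries, against 85.7 and 81.3 CPM in day 14 on libraries. Day 5 off libraries had 108 and 130 CPM and day 5 on libraries 124 and 106 CPM, which places them between the day 14 groups without overlap with either. The change at day 14 was 0.94 ± 0.14 (SE, edgeR adjusted p = 0.000728).
Ndufb8 had 233, 277, 309 and 232 CPM in day 14 off libraries, against 180 and 140 CPM in day 14 on libraries, with a change of 0.72 ± 0.16 (SE, edgeR adjusted p = 0.00606). Without day 14 on replicate 2 it was 0.55 and did not pass the test (adjusted p = 0.0743). Ndufb3, the member with the highest CPM, had 329, 366, 327 and 332 CPM in day 14 off libraries, against 280 and 271 CPM in day 14 on libraries. Although the groups did not overlap, the change of 0.30 ± 0.12 did not pass the test (edgeR adjusted p = 0.0901). Ndufb11, at the other end of the arm by p, had 94.7, 99.6, 110 and 85.9 CPM in day 14 off libraries, against 98.0 and 70.9 CPM in day 14 on libraries (0.21 ± 0.15, edgeR adjusted p = 0.328). Its groups overlapped, and without day 14 on replicate 2 the value was 0.

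Of the Ndufaf assembly factors 4 of 8 were called higher, with a median of 0.59. Ndufaf4 (ENSMUSG00000028261, chromosome 4, 24898083 to 24905001), which acts early on the Q module together with Ndufaf3, had 52.7, 52.0, 36.8 and 46.2 CPM in day 14 off libraries, against 24.9 and 29.4 CPM in day 14 on libraries. The change was 0.79 ± 0.18 (SE, edgeR adjusted p = 0.00665). Without day 14 on replicate 1 it was 0.64 and did not pass the test (adjusted p = 0.0844). Its partner Ndufaf3, together with Ndufaf1 of the membrane arm and Ndufaf8, made up the other called factors. Ndufaf5, which hydroxylates an arginine of Ndufs7, had 4.66, 6.59, 5.44 and 6.12 CPM in day 14 off libraries, against 7.25 and 6.05 CPM in day 14 on libraries, and the groups overlapped (-0.22 ± 0.25, edgeR adjusted p = 0.53).
Ndufa4 (ENSMUSG00000029632, chromosome 6, 11900292 to 11907497), the complex IV subunit under the Nduf name, had 70.2, 76.1, 70.2 and 61.1 CPM in day 14 off libraries, against 39.3 and 38.2 CPM in day 14 on libraries. It had 80.7 and 101 CPM in day 5 off libraries and 77.1 and 60.5 CPM in day 5 on libraries. Here too the day 14 on pair was the lowest of all, with a change at day 14 of 0.84 ± 0.16 (SE, edgeR adjusted p = 0.00239).
Called members were spread over the range of levels. Among the 23 members at or above the median CPM 14 were called higher, with a median change of 0.47, and among the 22 below it 14 were, with a median of 0.56. Tag counts of a 3′ library do not scale with transcript length, so CPM values of different genes are compared without a correction for length.

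**Figure D2:**
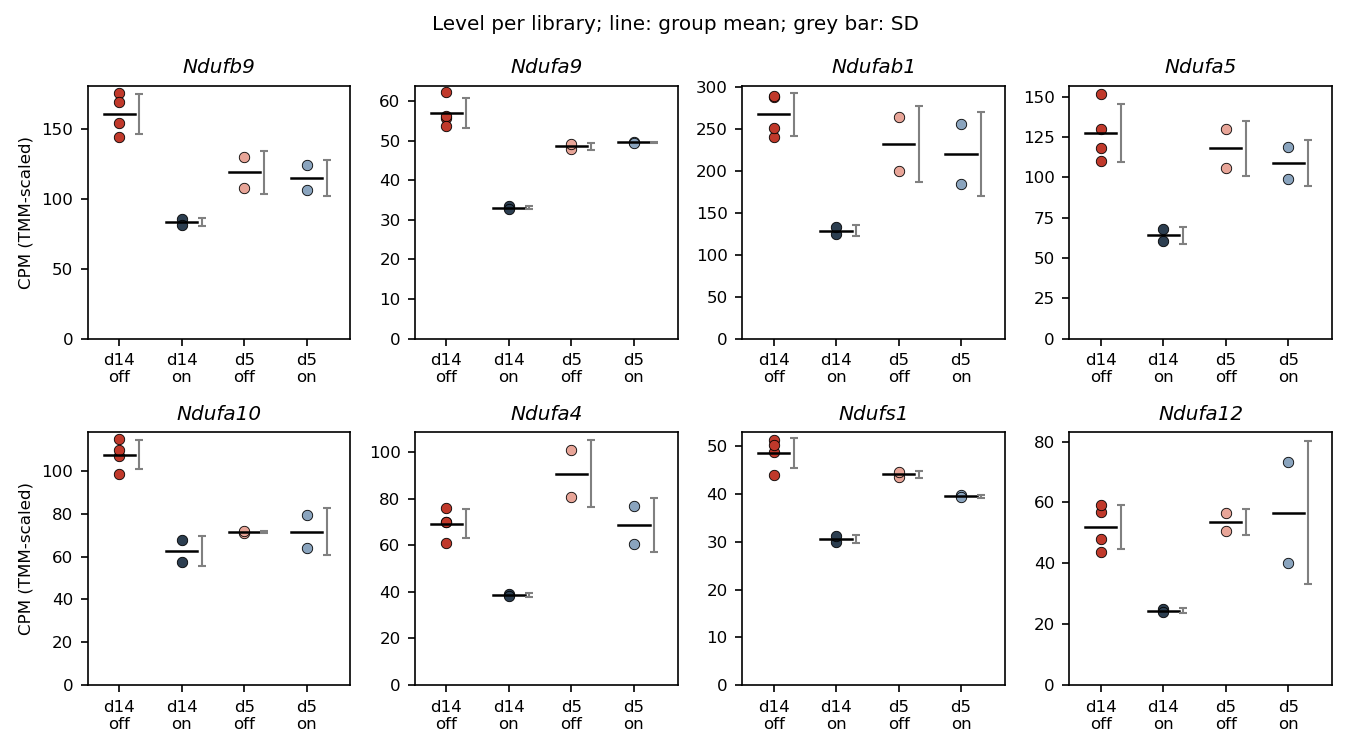
Points are the TMM-scaled CPM of each library for the 8 members that were called higher at day 14 in the fit reported here and in all 21 alternatives, with a line at the group mean and a grey bar for the SD (n = 4 in day 14 off, 2 in each other group). Both day 14 on points (d14 on) are the lowest of the 10 in each panel except that of Ndufa10, and all day 14 off points stand above all others for Ndufa9, Ndufa10 and Ndufb9.

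Across 21 other analysis settings 8 members were called higher at day 14 in every one, namely Ndufa4, Ndufa5, Ndufa9, Ndufa10, Ndufa12, Ndufab1, Ndufb9 and Ndufs1. The share of all tested genes called in every setting was not computed, so whether 8 members is many cannot be judged. As a sum over all 46 members, the day 14 off libraries held 3950, 4270, 4070 and 3800 CPM, against 3010 and 2780 CPM in the day 14 on libraries. The sums were 3710 and 4010 CPM in the day 5 off libraries and 3970 and 3450 CPM in the day 5 on libraries.

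At day 5 no member passed the test. Of the 45 tested, 0 were called higher and 0 lower in off over on libraries by edgeR, where 0.371% of all tested genes rose, 0.113% fell and 0.484% changed either way. The DESeq2 Wald test called 0 members, where it called 2.97% of all tested genes, while limma voom called 0 of all 15916 genes and so bears on no member. By edgeR 2 members had an unadjusted p below 0.05. The larger of these p-values (0.0383) ranked 1987 from the smallest among all 15916 tested genes. The median log2 fold change was 0.00, against -0.02 over all tested genes, and the values ran from -0.31 to 0.41. The 95% intervals of the single members differed in width, and their outermost ends, from different genes, were -0.68 and 0.84. In simulated data this comparison called 0% of genes changed by 0.5 on the log2 scale and 35.8% of those changed by 1. A change of 0.5 in a single gene could thus be missed here. A change of 1 in either direction lay outside the 95% interval of every tested member.
The members of smallest p at day 5 moved in opposite directions. Ndufa4 had 80.7 and 101 CPM in day 5 off libraries, against 77.1 and 60.5 CPM in day 5 on libraries (0.41 ± 0.17, 95% interval 0.03 to 0.78, edgeR adjusted p = 0.307). Ndufa7, an accessory subunit of the N module, had 83.9 and 94.9 CPM in day 5 off libraries, against 111 and 110 CPM in day 5 on libraries (-0.31 ± 0.13, 95% interval -0.59 to -0.02, edgeR adjusted p = 0.307). For both genes the off and on libraries did not overlap, and neither passed the test. Over all tested genes both day 5 off libraries lay above both day 5 on libraries for 19.3% and below for 20.9%. Of the 45 members 7 lay above and 6 below.
Some members differed widely between the day 5 on replicates. Ndufa1, an accessory subunit encoded on the X chromosome, had 179 and 189 CPM in day 5 off libraries, against 216 and 102 CPM in day 5 on libraries. Without day 5 on replicate 1 the median of all members at day 5 was 0.12, and 0 were called.

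Over time with the vector on, nearly all members had lower levels at day 14, and 2 passed the test. This comparison shares the day 14 on libraries with the day 14 off over on comparison, so the values are side by side and are not separate evidence. Of 45 members 44 had a log2 fold change below 0 in day 14 on over day 5 on libraries, with a median of -0.36 against 0.00 over all tested genes. Both day 14 on libraries lay below both day 5 on libraries for 31 members, where 23.1% of all tested genes did so. By edgeR 2 members were called lower and 0 higher, where 1.36% of all genes fell, 0.968% rose and 2.32% changed either way. An unadjusted p below 0.05 was reached by 23 members. The largest of their p-values (0.0457 by edgeR) ranked 3122 from the smallest among all 15916 tested genes.
The called members were Ndufa12 and Ndufa4. Ndufa12 had 25 and 23.9 CPM in day 14 on libraries, against 73.3 and 40.1 CPM in day 5 on libraries (-1.21 ± 0.26, edgeR adjusted p = 0.0421). Ndufa4 had 39.3 and 38.2 CPM in day 14 on libraries, against 77.1 and 60.5 CPM in day 5 on libraries (-0.83 ± 0.17, edgeR adjusted p = 0.0412). Each call sat close to the threshold. Without any 1 of the 4 day 14 off libraries the count of members called lower was 0. Those fits called 0.235% to 1.41% of all genes either way. Leaving out a library of another group leaves 1 in that group, so only sizes are given. Over the 21 other settings the change ran from -1.54 to -0.72 for Ndufa12 and from -0.95 to -0.65 for Ndufa4. By limma voom the count was 0 (1.57% of all genes), and by the DESeq2 Wald test it was 9 (7.14%).

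**Figure D3:**
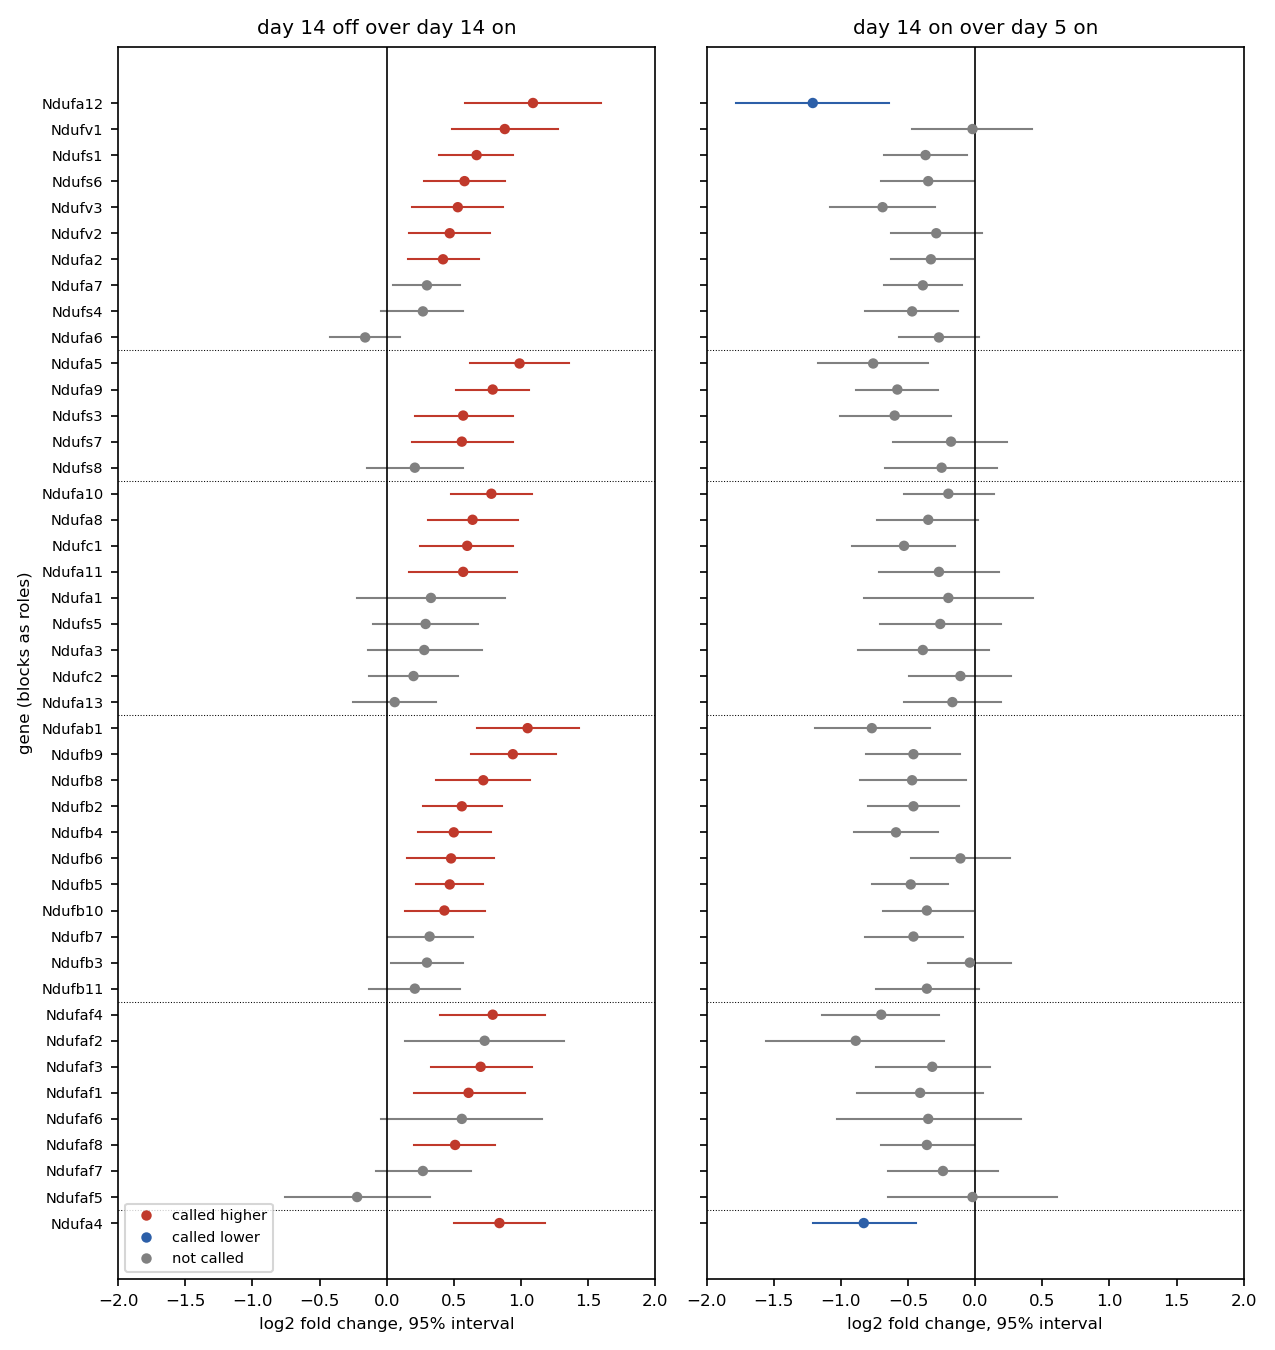
Points are edgeR log2 fold changes with 95% intervals for 44 tested members, day 14 off over day 14 on at left and day 14 on over day 5 on at right, with dotted lines between the roles (N module, Q module, proximal arm, distal arm, Ndufaf factors, Ndufa4). At left 28 members are called higher (red), and at right 2 are called lower (blue).

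With the vector off, members differed little between the days. By edgeR 3 of 45 were called higher in day 14 off over day 5 off libraries and 0 lower, where 10.1% of all tested genes rose, 6.94% fell and 17.0% changed either way. The median log2 fold change was 0.06 against -0.01 over all genes. The share of members called was thus under that of all genes.
Ndufv1 had 37.9, 45.2, 44.5 and 32.6 CPM in day 14 off libraries, against 20.5 and 21.7 CPM in day 5 off libraries (0.92 ± 0.18, edgeR adjusted p = 0.00745). Ndufa10 had 98.6, 115, 107 and 110 CPM in day 14 off libraries, against 71.1 and 71.8 CPM in day 5 off libraries (0.59 ± 0.14, edgeR adjusted p = 0.0149). Ndufaf3 had 75.2, 84.7, 62.1 and 71.0 CPM in day 14 off libraries, against 45.7 and 54.1 CPM in day 5 off libraries (0.55 ± 0.17, edgeR adjusted p = 0.0479). The groups did not overlap for any of the 3 genes. In all, 12 members had every day 14 off library above both day 5 off libraries, where 24.2% of all tested genes did. Without day 14 off replicate 2 the count was 1, where 10.9% of all tested genes were called either way. The calls also rest on the 2 day 5 off libraries. Over the 21 other settings the change ran from 0.84 to 1 for Ndufv1, from 0.54 to 0.62 for Ndufa10 and from 0.42 to 0.68 for Ndufaf3.

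The difference between the days in the off over on change was tested directly, as the day 14 change minus the day 5 change. It was above 0 for 43 of 45 members, with a median of 0.48 against 0.03 over all genes. Ndufa9 (0.82 ± 0.18, edgeR adjusted p = 0.0414) and Ndufb9 (0.89 ± 0.21, edgeR adjusted p = 0.049) were called higher and 0 members lower, where 1.65% of all genes were called higher, 1.41% lower and 3.06% either way. With 23 members at an unadjusted p below 0.05, most of the difference did not pass the adjusted threshold gene by gene. The largest p of these 23 (0.0444 by edgeR) ranked 3456 from the smallest among all 15916 tested genes. Both calls were near the threshold. Without each of the 4 day 14 off libraries the count was 0, where 0.672% to 2.11% of all genes were called either way. Over the 20 other settings the difference ran from 0.74 to 0.84 for Ndufa9 and from 0.73 to 1.04 for Ndufb9.

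The mitochondrially encoded subunits, which form the proton-pumping core of the membrane arms, were measured in the same libraries. At day 14, 4 of 7 were called higher off over on (16.9% of all tested genes) and 0 lower (14.9%), with a median of 0.48. mt-Nd4l had 47.3, 43.1, 41.7 and 36 CPM in day 14 off libraries, against 17.2 and 17.3 CPM in day 14 on libraries (1.28 ± 0.24, edgeR adjusted p = 0.00278). mt-Nd2 had 735, 814, 602 and 954 CPM in day 14 off libraries, against 398 and 383 CPM in day 14 on libraries (0.99 ± 0.21, edgeR adjusted p = 0.00529). In neither gene did the groups overlap, as for 27.9% of all tested genes in that direction.
mt-Nd3 (0.72 ± 0.19, edgeR adjusted p = 0.0152) and mt-Nd4 (0.48 ± 0.14, edgeR adjusted p = 0.0208) were the other called genes, and both lost the call without either day 14 on library. mt-Nd1 (0.37 ± 0.13, edgeR adjusted p = 0.0551), mt-Nd5 (0.39 ± 0.21, edgeR adjusted p = 0.189) and mt-Nd6 (-0.30 ± 0.23, edgeR adjusted p = 0.344) did not pass. mt-Nd6, the only one encoded on the light strand, had 330, 330, 184 and 348 CPM in day 14 off libraries, against 371 and 363 CPM in day 14 on libraries. At day 5, 0 of 7 were called by edgeR, and 1 had an unadjusted p below 0.05. In day 14 on over day 5 on libraries mt-Nd4l was called lower (-1.18 ± 0.27, edgeR adjusted p = 0.0495). Mitochondrial transcripts are read here through polyA priming, and how that samples each of them was not tested.

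Of 13 further assembly factors 2 rose and 1 fell in day 14 off over day 14 on libraries, where 16.9% of all tested genes rose and 14.9% fell, and their median was 0.27. The share of these factors that rose was near that of all genes. Aifm1, a mitochondrial flavoprotein needed for complex I biogenesis, had 65.7, 76.8, 59.1 and 68.5 CPM in day 14 off libraries, against 30 and 36.9 CPM in day 14 on libraries (1.01 ± 0.17, edgeR adjusted p = 0.00131). Dmac1, a factor of the distal arm, had 57.3, 60.9, 46.5 and 48.6 CPM in day 14 off libraries, against 39.0 and 34.1 CPM in day 14 on libraries (0.55 ± 0.16, edgeR adjusted p = 0.0255). Dmac2, also a distal arm factor, had 12.3, 11.2, 13.4 and 11.9 CPM in day 14 off libraries, against 21.3 and 20.7 CPM in day 14 on libraries (-0.79 ± 0.15, edgeR adjusted p = 0.00249). The groups did not overlap for these 3 genes, and Dmac2 moved the other way from the subunits. Over all tested genes the groups did not overlap for 27.9% higher off and 24.6% lower off.

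Of 11 tested regulators of mitochondrial gene expression 3 rose and 1 fell at day 14, beside the same shares of all genes (16.9% and 14.9%). Pprc1, a coactivator of the PGC-1 family, had 20.8, 22, 15.1 and 23.3 CPM in day 14 off libraries, against 9.85 and 11.9 CPM in day 14 on libraries (0.90 ± 0.21, edgeR adjusted p = 0.00833). Ppargc1b, another member of that family, had 4.66, 5.71, 2.41 and 1.69 CPM in day 14 off libraries, against 0 and 0.0903 CPM in day 14 on libraries (edgeR adjusted p = 0.00143). The day 14 on levels are under the limit that a count of 0 allows, so no fold is given.
Tfam, which packages and transcribes mitochondrial DNA, had 59.3, 63.4, 46.1 and 61.7 CPM in day 14 off libraries, against 37.0 and 36.9 CPM in day 14 on libraries (0.64 ± 0.15, edgeR adjusted p = 0.0084). Gabpb1, a subunit of the ETS factor GABP, had 6.94, 7.69, 6.20 and 5.36 CPM in day 14 off libraries, against 9.95 and 10.7 CPM in day 14 on libraries (-0.65 ± 0.21, edgeR adjusted p = 0.037). Without day 14 on replicate 1 neither Pprc1, Tfam nor Gabpb1 passed the test. Nrf1 (0.22, edgeR adjusted p = 0.331) and Yy1 (0.06, edgeR adjusted p = 0.752), whose motifs are shown above, did not pass at day 14. In day 14 off over day 5 off libraries 4 of the 11 were called higher (10.1% of all tested genes), Nrf1, Polrmt, Ppargc1b and Pprc1, while the members' median there was 0.06.

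**Figure D4:**
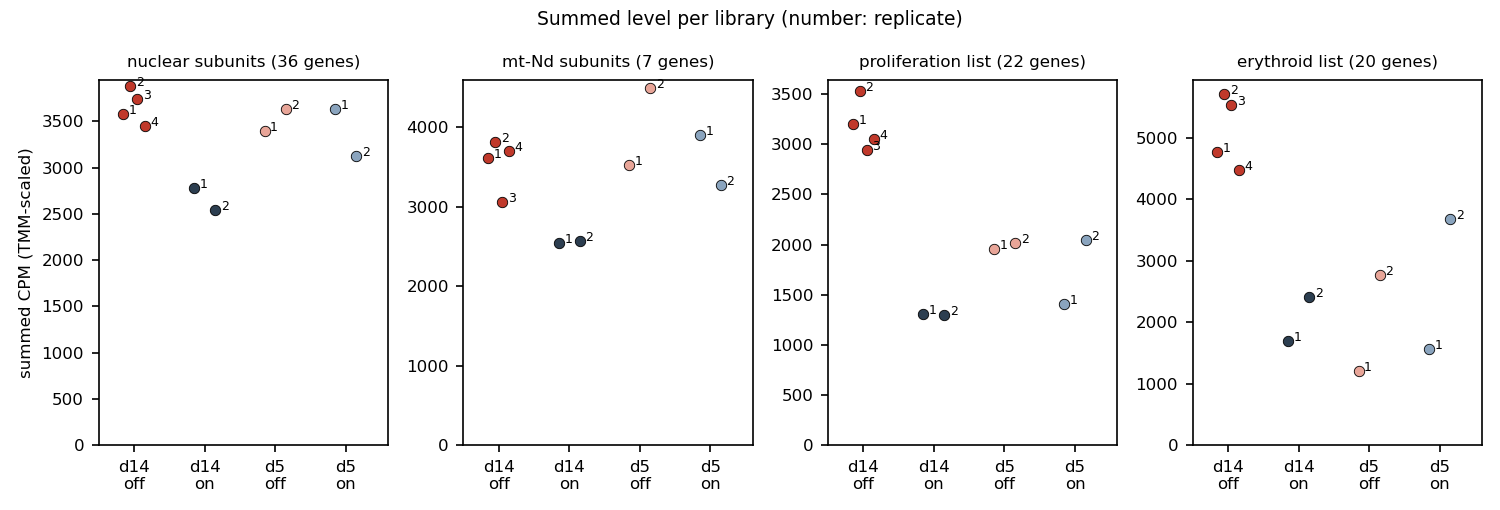
Points are the summed TMM-scaled CPM of each library (number: replicate) for the 36 nuclear subunits, the 7 mt-Nd subunits, 22 proliferation genes and 20 erythroid genes, by group. Nuclear subunits, mt-Nd subunits and proliferation genes are lowest in the 2 day 14 on libraries, and the erythroid sum is highest in the 4 day 14 off libraries.

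Proliferation and erythroid genes moved with the complex I genes at day 14, and other lists are given beside them. Over all tested genes 16.9% were called higher and 14.9% lower there. The part of any list in the complex I result was not tested. The 22 proliferation genes summed to 3200, 3530, 2940 and 3050 CPM in day 14 off libraries, against 1310 and 1300 CPM in day 14 on libraries. They summed to 1960 and 2020 CPM in day 5 off libraries and 1410 and 2050 CPM in day 5 on libraries. Of these genes 21 of 22 were called higher at day 14, with a median log2 fold change of 1.48, and 0 of 22 by edgeR at day 5, where 5 had an unadjusted p below 0.05.
The 20 erythroid genes summed to 4470 to 5710 CPM in day 14 off libraries, against 1690 and 2410 CPM in day 14 on libraries, and 14 of 20 were called higher, with a median of 3.36. Klf1, an erythroid transcription factor, had 49.5 to 75.0 CPM in day 14 off libraries, against 1.76 and 1.63 CPM in day 14 on libraries. The erythroid sum was 1210 and 2770 CPM in day 5 off libraries and 1560 and 3670 CPM in day 5 on libraries. At day 5, 3 of 20 erythroid genes were called higher off over on, where 0.371% of all tested genes were.
The 36 nuclear subunits summed to 3580, 3880, 3740 and 3450 CPM in day 14 off libraries, 2780 and 2540 CPM in day 14 on libraries, 3400 and 3630 CPM in day 5 off libraries and 3630 and 3130 CPM in day 5 on libraries.
Of the myeloid lists, granulocyte progenitor genes were called lower for 3 of 6 at day 14, with sums of 15 to 88.9 CPM in day 14 off libraries against 294 and 90.7 CPM in day 14 on libraries. Monocyte genes were called lower for 6 of 11, with sums of 779 to 1620 CPM against 2000 and 632 CPM. Neutrophil genes had 1 higher and 2 lower of 12, with sums of 797 to 1230 CPM against 1860 and 1180 CPM. Dendritic cell genes had 1 of 9 called lower, with sums of 2580 to 6000 CPM against 6220 and 2910 CPM. Megakaryocyte genes had 2 higher and 1 lower of 8, and T and NK cell genes 1 higher and 4 lower of 9. The counts of the neutrophil, dendritic cell and megakaryocyte lists do not stand apart from the shares of all genes (16.9% higher, 14.9% lower). B cell genes, with 0 of 5 called by edgeR (0 also at an unadjusted p below 0.05), summed to 7.87 to 10.8 CPM in day 14 off libraries, against 11 and 7.14 CPM in day 14 on libraries. The stroma and endothelium list had 1 higher and 1 lower of 3. No list gene was at 0 in every library.

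Of 18 overlaps of members with other genes, none gave counts within 2% of the partner's in all libraries. That check finds only nearly complete sharing of reads, and partial sharing was not tested. On the same strand, Gm20538 overlaps Ndufb8, Gm42420 overlaps Ndufb2 and Gm16053 overlaps Ndufc2. Ndufb1-ps, the mouse gene for the NDUFB1 subunit, is classed by GENCODE as bidirectional_promoter_lncRNA and so is no member. It had 136, 125, 99.3 and 112 CPM in day 14 off libraries, against 100 and 117 CPM in day 14 on libraries, and did not pass the test (0.12, edgeR adjusted p = 0.644).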

How the data were processed

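Sorted leukaemic cells were profiled by RNA sequencing in 10 libraries. Trizol and Direct-zol extraction, QuantSeq 3′ mRNA libraries and single-end NextSeq500 reads are given per the labels' protocols. Tools listed in the submitters' processing notes are HISAT2 2.0.4 and cutadapt 1.14, featureCounts with Subread 2.0.0, bcl2fastq 2.17.1.14, limma 3.48.3 and edgeR 3.34.0, with build mm10. Neither the strand setting nor the annotation release is given in the sources used here. In 1 table, the authors deposited raw counts per Ensembl gene, with no normalization.

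Of 52636 gene IDs 52403 matched GENCODE M21, which gave symbols, types and mm10 positions. In R 4.3.3 with edgeR 4.0.16, filterByExpr over the 4 groups kept 15916 genes, TMM scaled the libraries, and a robust quasi-likelihood fit with a mean per group over all 10 libraries gave each contrast, with p adjusted by Benjamini-Hochberg over the whole table of tested genes and calls at 0.05. The groups share 1 estimate of the spread. Log2 fold changes carry standard errors, CPM is TMM-scaled, and log2 CPM used a prior count of 2. The fit was tested on simulated data with changes of 0.5, 1 and 2 on the log2 scale. For day 14 off over on it called 1.49%, 47.8% and 90.9% of the changed genes in the right direction. For the difference between days the shares were 0%, 2.99% and 87.9%. Far fewer genes were changed there than the 5063 called at day 14, so the day 14 shares may not carry over.
Alternatives, chosen with the design, were RLE and total-count scaling, scaling without 3 ribosomal RNA locus genes, other low-count filters, DESeq2 1.42.0, limma 3.58.1 voom, a replicate block, a fit of only the groups compared, thinned counts, only protein-coding genes that share no counts with a partner, and leaving out each library.
No pair of replicates agreed within sampling noise. Named genes were the 8 members of smallest p at day 14, those of smallest and largest p in each role, the 2 of smallest p in each other comparison, the 3 of highest CPM, the mt-Nd genes, and further assembly factors and regulators called at day 14. Ndufa12, Ndufaf3, Ndufa1 and the marker genes given with values were named beside these after their values were seen, where that rule did not name them. Results of 1 member are not reported here, while counts, medians and sums over the members include it. The members and gene lists were chosen with earlier results of these data known.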

Additional observations from a re-analysis of the deposited data

Results flagged for a closer look

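In the day 14 off group of 4 libraries, replicate 2 stood apart from the other 3 for 2 of the 45 tested members, about the 1 in 20 that chance gives. Ndufb3 had 366 CPM there, against 327 to 332 CPM in the others, and Ndufs4, a late-joining N module subunit, had 43.7 CPM, against 49.3 to 50.1 CPM.

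For 2 members the off over on change differed between the days by a test of that difference (edgeR). Ndufa9 had a day 14 change that exceeded the day 5 change by 0.82 on the log2 scale, and Ndufb9 by 0.89.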

How the results depend on the processing

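At day 14 the count of members called higher off over on was 28, beside 16.9% of all tested genes. It was 20 with no low-count filter (9.09% of all genes). Under the other 10 settings, apart from leaving out a library, it was 25 to 29 (15.5% to 19.0%). Of these 10, the fit of only the groups compared used the day 14 libraries alone. Leaving out each library gave 12 to 29, and 0 members were called lower throughout. At day 5 no setting called any member. There voom, the fit of only the groups compared and the fits without day 14 off replicate 1 or 4 called 0 of all tested genes. Those settings bear on no member. In day 14 over day 5, off, the count called higher was 3, beside 10.1% of all genes called higher. It was 5 by DESeq2 (11.6%) and 5 with only the groups compared (14.2%), which also called 1 lower. Without each day 14 off library it was 1 to 3 (5.83% to 7.73%). In day 14 over day 5, on, the count called lower was 2, beside 2.32% of all genes called either way. It was 1 under total-count scaling (1.19%), 4 with no filter (4.40%) and 5 with a filter at 5 CPM (3.85%). DESeq2 gave 9 (7.14%), voom 0 (1.57%), thinned counts 1 (1.58%) and protein-coding genes alone 5 (2.54%). A fit of only the groups compared called 0 of all 14672 genes and so bears on no member. Without each day 14 off library the count was 0 (0.235% to 1.41%). For the difference between days the count called higher was 2, beside 3.06% of all genes called either way. It was 1 with RLE (2.66%), 0 under total-count scaling (2.19%) and 4 with no filter (6.75%). DESeq2 gave 8 (8.34%), voom 1 (2.56%) and thinned counts 0 (2.90%). Without each day 14 off library the count was 0 (0.672% to 2.11%). That difference uses all 4 groups, so a fit of only the groups compared is the same fit. The cause of these moves was not tested.

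With the replicate number as a block, 27 members were called higher at day 14, beside 17.1% of all genes. At day 5 it called 0 members, beside 1.41% of all genes called either way. It called 4 in day 14 over day 5, off (19.1%), and 7 lower in day 14 over day 5, on (6.37%). In the difference between days 6 were called (9.56%). No label says what a shared number marks. The deviations of same-numbered libraries from their group means correlated at 0.03 to 0.33 over the 12 pairs, at 0.03 and 0.30 between day 14 off and on, 0.20 between day 5 off and on, 0.09 and 0.30 between day 14 off and day 5 off, and 0.33 between day 14 on and day 5 on, so whether the numbers pair the libraries is not settled.

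In the off over on change at day 14, signs turned for 2 uncalled genes named with values. Without each library, Ndufa13 was -0.05 to 0.15 and Ndufb11 0 to 0.43, both lowest without day 14 on replicate 2. At day 5, where no member was called, the change of Ndufa1 ran from -0.20 to 0.82 over the settings.

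All tested members lay above the level that a count of 0 allows, while Ndufa4l2 was near it. Depth touched the calls, since counts thinned to the smallest library gave 25 members called higher at day 14, with Ndufa11, Ndufaf1 and Ndufb10 lost.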
